A study of Arabidopsis thaliana with 16 samples.

Results

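AUR1, HTB2 and AT2G37470 are 3 Arabidopsis genes linked to cell proliferation. AUR1 (AT4G32830, probe set 253403_at) encodes an Aurora kinase. HTB2 (AT5G22880, probe set 249916_at) and AT2G37470 (probe set 265960_at) encode forms of histone H2B. They were taken by name from the array's annotation, in which each has 1 probe set of its own and shares none with another gene. They are 3 of the 22746 probe sets that were tested.

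Aurora kinases phosphorylate histones and spindle proteins during mitosis, and in plants AUR1 acts on the spindle and in placing the division plane. Histone H2B pairs with H2A in the nucleosome, and the bulk of core histone transcript is made while DNA is being copied. In roots, auxin starts the divisions that found lateral roots, so transcripts of both kinds are used as signs of dividing cells.

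The study compared roots of 5-day-old seedlings that were mutant for PUCHI (puchi-1), a gene for a transcription factor of the AP2/ERF family that acts in young lateral roots. All seedlings carried gPUCHI:GR, a fusion of PUCHI to the glucocorticoid receptor under the regulatory region of PUCHI itself. Total RNA was measured on 16 Affymetrix arrays, 2 for each of 8 treatments of 4 h. The treatments combined 1 µM naphthaleneacetic acid (NAA), a synthetic auxin, 10 µM cycloheximide (CHX), which blocks protein synthesis, and 2 µM dexamethasone (DEX), which lets the fusion protein enter the nucleus. The 8 groups were NAA+DEX+CHX, NAA+CHX, DEX+CHX, CHX, NAA+DEX, NAA, DEX and mock (0.1% DMSO). Because every group carried the mutation and the fusion, none of them shows these genes in wild-type roots or the effect of DEX on plants without the fusion. The fusion acts where its own promoter is active, while the array measured the whole root, and fewer cells of a type cannot be told apart from less RNA per cell. The design gives 2 independent sets of RNA for each treatment. Whether a set is 1 plant or a pool is not stated in the sources used here, so the p-values measure the spread between these samples.

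The arrays were alike in scale, with median signals of 175 to 189 and a correlation of 0.983 to 0.989 between the 2 arrays of a group on the log2 scale. Of the root markers, 3 of 14 were measured by a named probe set, and PYK10, a root beta-glucosidase, had signals of 11600 to 28784. Of the green tissue markers, 2 of 12 were measured, Rubisco activase (RCA) at 309 to 719 and phosphoribulokinase (PRK) at 1.42 to 49.1, and no marker was at 0 on any array. PUCHI transcript had signals of 1696 to 1916 on the 4 arrays with NAA and no CHX, and of 339 to 456 on the 8 with CHX. In the other 4 they were 117 and 104 in DEX roots and 220 and 195 in mock roots, without overlap, a difference that is described here and not tested. The array cannot show where the fusion protein is, which is what DEX is used to change.

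AUR1 signal was low wherever CHX was present. The 2 arrays of each group gave signals of 296 and 347 in NAA+DEX+CHX roots, 315 and 335 in NAA+CHX roots, 293 and 331 in DEX+CHX roots and 345 and 323 in CHX roots. In the groups without CHX the signals were 1112 and 984 in NAA+DEX roots, 791 and 882 in NAA roots, 679 and 665 in DEX roots, and 698 and 714 in mock roots. All 8 arrays with CHX lay below all 8 without it, and the NAA+DEX arrays were the highest of the 16. The share of all probe sets that split by CHX in this way is not given, here or for the H2B genes below. CHX changes were common, with 29.5% of all probe sets called higher and 34.4% lower in the roots without NAA. The group means ran in the order NAA+DEX, NAA, mock, DEX, CHX, NAA+CHX, NAA+DEX+CHX and DEX+CHX. Each of the last 4 overlapped the next, while both CHX arrays lay below both DEX arrays. The first 4 did not overlap, although the differences of NAA+DEX from NAA, NAA from mock and DEX from mock did not pass the tests given below.

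HTB2 signal was high wherever CHX was present. It was 3032 and 3111 in NAA+DEX+CHX roots, 3198 and 3237 in NAA+CHX roots, 2820 and 2443 in DEX+CHX roots and 3284 and 2643 in CHX roots. Without CHX it was 1795 and 1947 in NAA+DEX roots, 1460 and 1641 in NAA roots, 1601 and 1620 in DEX roots, and 1673 and 1672 in mock roots. All 8 arrays with CHX lay above all 8 without it. By group mean the order was NAA+CHX, NAA+DEX+CHX, CHX, DEX+CHX, NAA+DEX, mock, DEX and NAA. CHX overlapped both of its neighbours in that order, and DEX overlapped NAA.

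AT2G37470 had the same split. Its signals were 2646 and 2162 in NAA+DEX+CHX roots, 2200 and 1597 in NAA+CHX roots, 2431 and 1985 in DEX+CHX roots and 2439 and 2324 in CHX roots. The groups without CHX gave 884 and 945 in NAA+DEX roots, 630 and 899 in NAA roots, 831 and 909 in DEX roots, and 919 and 862 in mock roots. All 8 arrays with CHX again lay above all 8 without it. Within each set of 4 groups every group overlapped the next in the order of the means, which ran NAA+DEX+CHX, CHX, DEX+CHX, NAA+CHX, NAA+DEX, mock, DEX and NAA. This H2B gene was also the noisiest of the 3, with an SD between the 2 arrays of a group of 0.20 on the log2 scale when pooled over the groups, against 0.11 for HTB2 and 0.10 for AUR1.

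**Figure D1:**
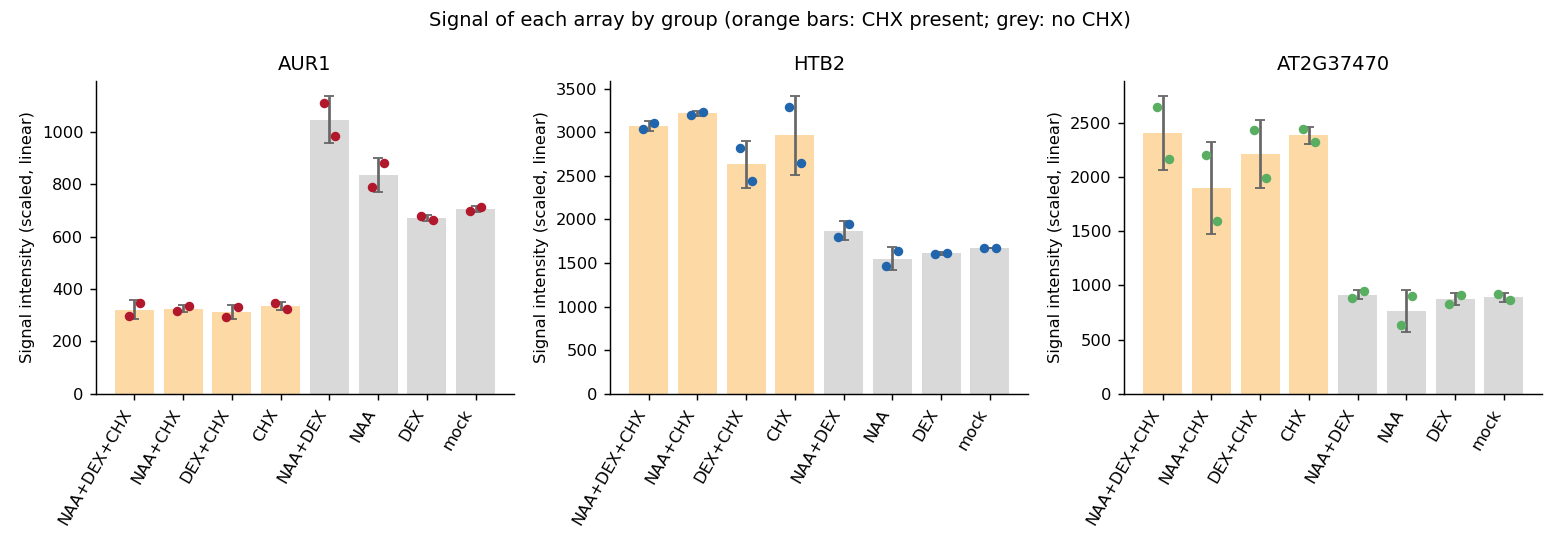
Signal intensity (linear, scaled by the authors) of AUR1, HTB2 and AT2G37470 in the 8 groups. Points are the 2 arrays of a group, bars their mean and error bars the SD, and orange bars hold CHX. All 8 arrays with CHX are below the 8 without it for AUR1 (293 to 347 against 665 to 1112) and above them for HTB2 (2443 to 3284 against 1460 to 1947) and AT2G37470 (1597 to 2646 against 630 to 945).

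The first comparison asked what blocking protein synthesis does to the 3 transcripts. CHX lowered AUR1 and raised both H2B genes, with or without NAA. Changes are differences in log2(intensity + 16), which understate the change of weak signals. Each array was scaled to the same mean, so a change is relative to the rest of the array and not an absolute amount. A change was called at a limma adjusted p under 0.05, with the Benjamini-Hochberg adjustment over all 22746 probe sets. In the roots without NAA, with both DEX states pooled (4 arrays against 4), AUR1 fell by 1.06 (SE 0.08, limma adjusted p 2.2e-09). HTB2 rose there by 0.76 (SE 0.07, limma adjusted p 6.69e-08) and AT2G37470 by 1.36 (SE 0.11, limma adjusted p 1.04e-08). CHX moved much of the array, with 29.5% of all probe sets called higher and 34.4% called lower, so a call under CHX is common. By size, 15.3% of all probe sets had a larger fall than AUR1, 19.8% a larger rise than HTB2 and 11.1% a larger rise than AT2G37470.

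In the roots with NAA the picture was the same in direction. AUR1 fell by 1.49 (SE 0.08, limma adjusted p 2.05e-11), to a fold of 0.356 of its level without CHX. HTB2 rose by 0.88 (SE 0.07, limma adjusted p 8.75e-09), a fold of 1.84, and AT2G37470 by 1.34 (SE 0.11, limma adjusted p 1.33e-08), a fold of 2.52. In that comparison 29.1% of all probe sets were called higher and 35.1% lower. Each of the 4 single backgrounds, with 2 arrays against 2, also gave a call for all 3 genes, where 56.2% of all probe sets were called for CHX alone, 56.4% with DEX, 56.7% with NAA and 57.1% with NAA and DEX. The 4 changes of AUR1 were -1.05 for CHX alone, -1.07 with DEX, -1.32 with NAA and -1.66 with NAA and DEX. HTB2 changed by 0.81, 0.70, 1.05 and 0.71 in the same order of backgrounds. The 4 changes of AT2G37470 were folds of 2.46 to 2.65.

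Several other measures moved with CHX. In the roots without NAA, PYK10 fell by 0.90 and EXPA18, a root hair expansin, by 1.16, while EXPA7, another one, changed by -0.18 and was not called. Of the green tissue markers RCA fell by 0.69, and PRK changed by -0.61 and was not called. The summed signal of the 3 measured root markers was 12805 to 19126 on the 8 arrays with CHX and 25146 to 31253 on the 8 without it. That of the 2 green tissue markers was 318 to 428 with CHX and 418 to 768 without it, nearly all of it RCA. RNA quality was read from control probe sets at both ends of a transcript. For GAPDH the 3'/5' ratio was 0.763 to 1.57 with CHX (median 1.09) and 0.877 to 1.53 without it (median 1.43). For Actin it was 11.0 to 22.3 with CHX (median 17.4) and 15.5 to 33.5 without it (median 21.2). Their part in the changes of the 3 genes was not tested.

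The next question was how auxin acts on the same transcripts. NAA raised AUR1 in the roots without CHX, and no call was made for either H2B gene. With both DEX states pooled, AUR1 rose by 0.43 (SE 0.08, limma adjusted p 0.000305), a fold of 1.35. All 4 arrays with NAA, at 791 to 1112, lay above the 4 without it, at 665 to 714. The share of all probe sets that split by NAA in this way is not given. In this comparison 19% of all probe sets were called higher and 18.8% lower, and 14.7% had a larger rise than AUR1. HTB2 differed by 0.05 (95% interval -0.10 to 0.21, limma adjusted p 0.648) and AT2G37470 by -0.08 (95% interval -0.33 to 0.16, limma adjusted p 0.634). Both intervals end below the rise of AUR1. On these arrays without CHX the Actin 3'/5' ratio was 33.5 and 25.5 in NAA+DEX roots and 20.6 and 28.6 in NAA roots. It was 15.5 and 21.7 in DEX roots and 20.6 and 18.2 in mock roots. The part of this ratio in the rise of AUR1 was not tested. Nor was that of the markers, of which EXPA7 fell by 0.64, EXPA18 by 0.69 and RCA by 0.55 after NAA without CHX, while PYK10 (-0.10) and PRK (0.10) were not called.

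With CHX present, AUR1 did not differ detectably between roots with and without NAA. Its change was 0.00 (95% interval -0.17 to 0.17, limma adjusted p 0.998), and the arrays of the 4 groups overlapped. HTB2 changed by 0.18 (95% interval 0.02 to 0.33, limma adjusted p 0.223) and AT2G37470 by -0.11 (95% interval -0.35 to 0.13, limma adjusted p 0.708). In this comparison 1.38% of all probe sets were called higher and 3.09% lower.

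The NAA effect of AUR1 was tested for a difference between roots with and without CHX. The change with CHX minus the change without it was -0.43 (SE 0.11, limma adjusted p 0.00876), so the rise after NAA was smaller with CHX. The same number says that the fall after CHX was larger with NAA. In all, 11.8% of probe sets were called for a higher and 12.5% for a lower value of this difference, and 16.8% had a more negative value than AUR1. For HTB2 the difference was 0.12 (95% interval -0.09 to 0.34, limma adjusted p 0.45), and for AT2G37470 it was -0.03 (95% interval -0.37 to 0.32, limma adjusted p 0.938).

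By single background, NAA gave a call for AUR1 in the roots with DEX, where it rose by 0.63 (SE 0.11, limma adjusted p 0.000384). For NAA alone the AUR1 change was 0.24 (SE 0.11, limma adjusted p 0.14). The changes in the roots with CHX were -0.04 without DEX and 0.04 with DEX. No background gave a call for HTB2, whose changes ran from -0.11 to 0.23, or for AT2G37470, whose changes ran from -0.34 to 0.12. Of all probe sets, 26.4% were called for NAA alone, 27.7% with DEX, 1.29% with CHX and 1.31% with DEX and CHX.

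**Figure D2:**
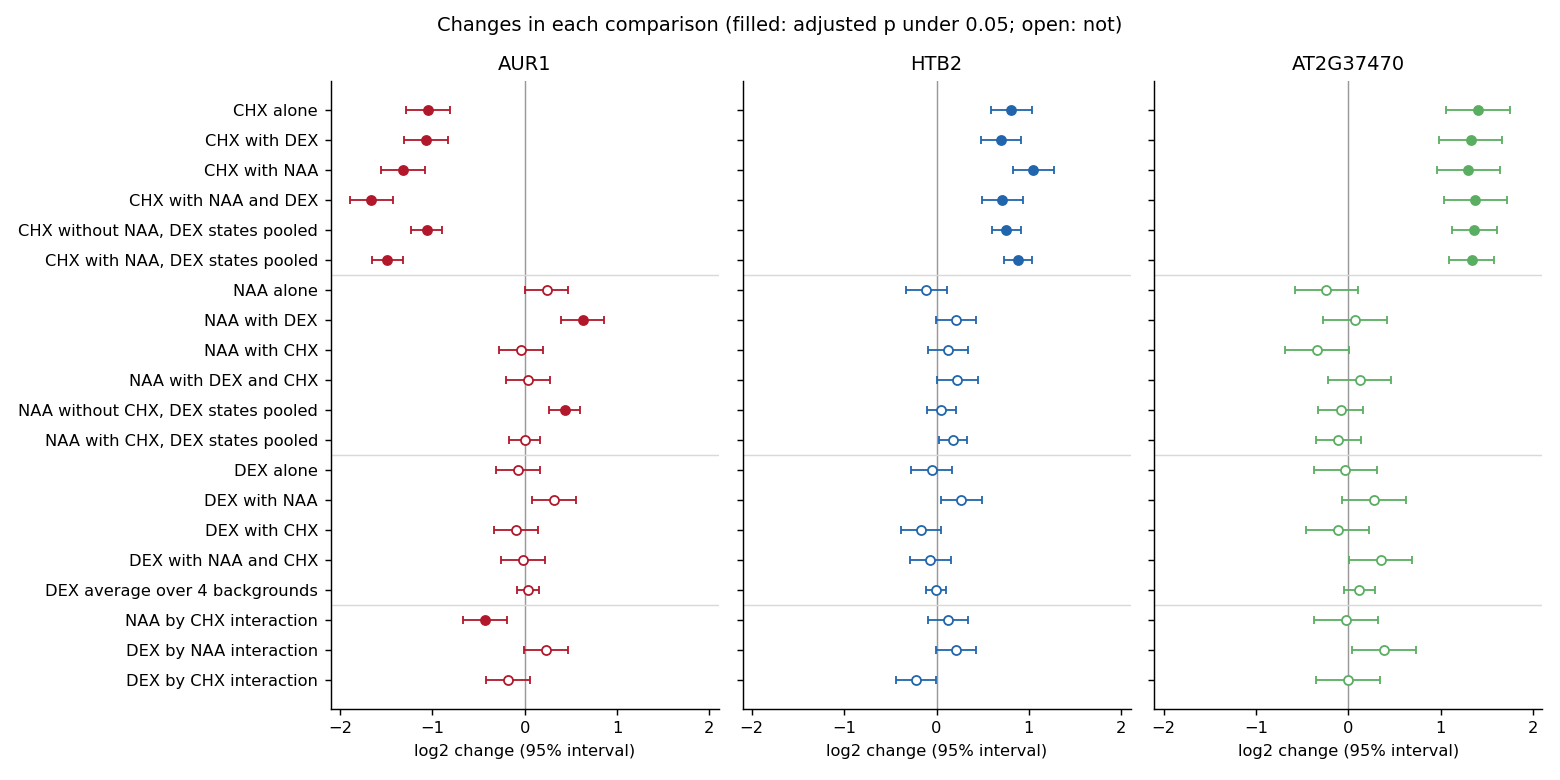
Log2 change, roots with the named agent minus roots without it, of AUR1, HTB2 and AT2G37470 in the 20 comparisons, with the 95% interval of the limma fit. Filled points passed an adjusted p under 0.05. All CHX comparisons are filled, from -1.66 to -1.05 for AUR1 and from 0.70 to 1.40 for the H2B genes. NAA is filled for AUR1 without CHX (0.43 pooled, 0.63 with DEX), NAA by CHX is filled for AUR1 (-0.43), and no DEX comparison is filled.

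DEX, which activates the PUCHI fusion, gave no call for any of the 3 genes. Averaged over the 4 backgrounds (8 arrays against 8), AUR1 changed by 0.03 (95% interval -0.09 to 0.15, limma adjusted p 0.947). HTB2 changed by -0.00 (95% interval -0.11 to 0.10, limma adjusted p 0.995) and AT2G37470 by 0.12 (95% interval -0.05 to 0.29, limma adjusted p 0.817). These calls were rare on the whole array, at 0.0659% of probe sets higher and 0.0132% lower. Of the single backgrounds, 0.022% of probe sets were called for DEX alone, 0.0352% with NAA, 0.0132% with CHX and 0.0308% with NAA and CHX.

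The widest gap in AUR1 after DEX was in the roots with NAA. Signals there were 1112 and 984 in NAA+DEX roots and 791 and 882 in NAA roots, a change of 0.32 (SE 0.11, unadjusted p 0.0113, limma adjusted p 0.513). HTB2 changed by 0.27 in that background (SE 0.10, unadjusted p 0.019, limma adjusted p 0.581). Its arrays did not overlap there, nor for DEX alone or DEX with NAA and CHX, where its changes were negative. The share of all probe sets without such overlap is not given. AT2G37470 had a change of 0.27 there (SE 0.16, limma adjusted p 0.791), and its arrays overlapped. That value was 0.02 without NAA replicate 1 and 0.53 without NAA replicate 2. None of the 3 differences passed over the whole array, where limma found 1634 probe sets at an unadjusted p under 0.05 and called 8. AT2G37470 changed most after DEX in the roots with NAA and CHX, by 0.35 (SE 0.16, unadjusted p 0.0466, limma adjusted p 0.659). There AUR1 changed by -0.02 and HTB2 by -0.07. For AUR1, HTB2 and AT2G37470 in that order, the changes were -0.07, -0.05 and -0.03 for DEX alone. With CHX they were -0.10, -0.17 and -0.12.

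Whether the response to DEX depended on NAA was tested over both CHX states. The difference was 0.23 for AUR1 (SE 0.11, limma adjusted p 0.836), 0.21 for HTB2 (SE 0.10, limma adjusted p 0.843) and 0.39 for AT2G37470 (SE 0.16, limma adjusted p 0.831). Of all probe sets 0% were called in either direction, while 1334 had an unadjusted limma p under 0.05. In the groups without CHX, a test added after the data were seen, the difference was 0.39 for AUR1 (SE 0.16, limma adjusted p 0.898), 0.32 for HTB2 (SE 0.15, limma adjusted p 0.94) and 0.31 for AT2G37470 (SE 0.23, limma adjusted p 1.00). That test called 5 of all probe sets. The difference of the DEX response between roots with and without CHX was -0.18 for AUR1, -0.22 for HTB2 and -0.00 for AT2G37470 (limma adjusted p 0.745, 0.655 and 0.997), with 0% of all probe sets called higher and 0.0044% lower.

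The 16 arrays thus fell into 2 separate clusters in the plot of each H2B gene against AUR1. The share of other probe sets that would split the arrays in this way is not given here. On the 8 arrays with CHX, AUR1 was low and the H2B genes were high, and on the 8 without CHX the reverse held. Among the arrays without CHX, AUR1 was highest with NAA, while the H2B signals of the arrays with and without NAA overlapped.

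**Figure D3:**
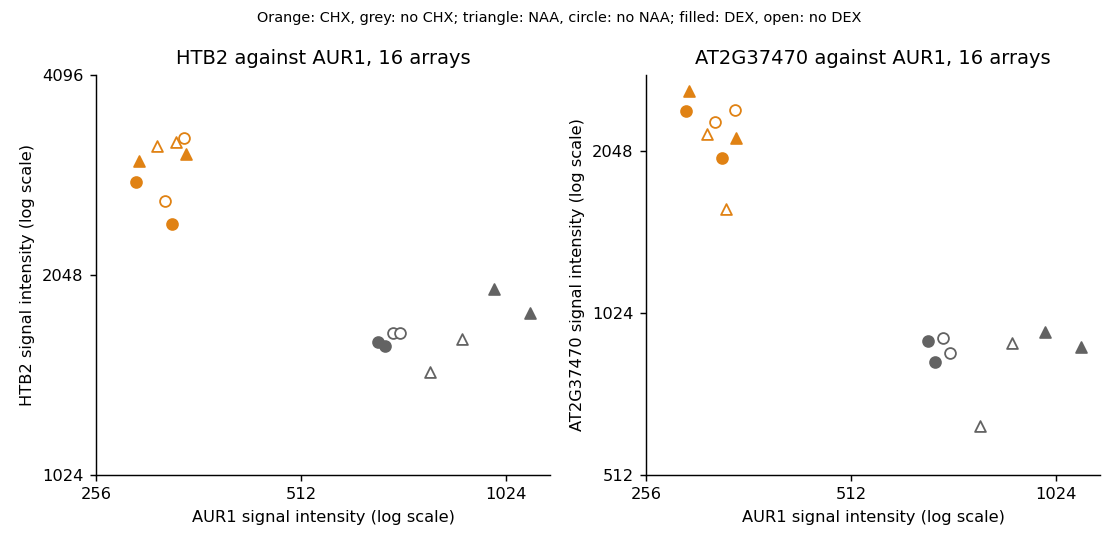
Signal of HTB2 (left) and AT2G37470 (right) against that of AUR1 on each of the 16 arrays, both axes on a log scale. Orange marks CHX, triangles mark NAA and filled symbols mark DEX. The 8 arrays with CHX sit at an AUR1 signal of 293 to 347, and the 8 without it at 665 to 1112 with a lower H2B signal.

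The H2B genes were set beside the rest of their family. Of 11 listed H2B genes, 9 were measured by a probe set that names 1 gene. Most rose with CHX. In the roots without NAA, 8 of the 9 rose and none fell, with a median change of 0.76 against -0.01 over all probe sets, and 29.5% of all probe sets were called higher. Leaving out HTB2 and AT2G37470, 6 of the other 7 rose, with a median change of 0.47. The largest rises were those of AT5G02570 at 2.65 and AT3G09480 at 1.97, ahead of AT2G37470 at 1.36. HTB1, which encodes another H2B of high signal, rose by 0.79, close to the 0.76 of HTB2. Their signals were also alike, at 3219 and 3250 for HTB1 and 3198 and 3237 for HTB2 in NAA+CHX roots. In mock roots they were 1820 and 1645 for HTB1 and 1673 and 1672 for HTB2. Whether both probe sets bound the same transcript was not tested.

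AT5G02570 had signals of 307 to 475 on the 8 arrays with CHX and weak signals of 21.4 to 57.1 on the 8 without it. AT1G08170 was the member that was not called, and its signals of 3.61 to 41.1 were near the bottom of the scale on all 16 arrays. AT2G28720 rose by 0.31, a call that ended without CHX replicate 1, where its change was 0.21 (limma adjusted p 0.0608). H2B transcripts resemble each other closely, and whether a probe set also bound the transcript of another family member was not tested. Those loci with no symbol are listed as H2B genes from textbook knowledge, since the gene table used here gives them by locus only.

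With NAA, 7 of the 9 H2B genes rose after CHX, with a median change of 0.88 against -0.01 over all probe sets, of which 29.1% were called higher. Without HTB2 and AT2G37470, 5 of the other 7 rose, with a median change of 0.81. The 2 not called were AT1G08170 at 0.20 and HTB4 at 0.15, named here after their values were seen. NAA without CHX raised none of the 9 and lowered AT2G28720, which fell by 0.52 (SE 0.09, limma adjusted p 0.000296), while 19% of all probe sets were called higher and 18.8% lower. The family median was then -0.16, against -0.00 over all probe sets. With CHX, NAA gave no call in the family, which had a median change of 0.11. In that comparison 1.38% of all probe sets were called higher and 3.09% lower. The difference of the NAA effect between roots with and without CHX was called for AT2G28720 at 0.51 and for HTB11 at 0.27. Over all probe sets 11.8% were called for a higher and 12.5% for a lower value of it. The HTB11 call (limma adjusted p 0.0498) was lost in 18 of 22 alternative settings, with an adjusted p of up to 0.124. DEX on average gave no call among the 9, with changes of -0.08 to 0.12, and none in any of the other 7 lists. For DEX on average, 0.0659% of all probe sets were called higher and 0.0132% lower.

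Other histone genes were less well covered, with 8 of 38 measured by a named probe set. After CHX without NAA, 5 rose and 2 fell, with a median change of 0.85 against -0.01 over all probe sets, of which 29.5% were called higher and 34.4% lower. AT1G13370 rose by 3.22, AT1G75600 by 2.14, AT2G30620 by a fold of 2.14, and HIS1-3, a linker histone induced by drought, fell by 1.31. The first of these had signals of 188 to 301 on the arrays with CHX and 2.49 to 25.8 on those without it, and HIS1-3 did not pass 67.2 on any array. With such weak signals the size of a change turned on the pseudocount. With pseudocounts of 1 and 64 in that order, AT1G13370 changed by 4.50 and 1.98, AT1G75600 by 4.44 and 0.98 and HIS1-3 by -2.33 and -0.62, all still called. The second gene to fall was HTR12, the centromeric H3 variant, at -0.63, named here after its value was seen. MGH3, an H3 variant of male gametes, had signals of 1.15 to 47.0, and its rise of 0.61 with CHX ran from 0.24 to 1.41 over 22 alternative settings. That call was lost in 5 of them, with a limma adjusted p of up to 0.136. By background, MGH3 changed by 1.31 for CHX alone and by -0.08 with DEX, which was not called.

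With NAA and no CHX, 1 of those 8 rose and 3 fell, where 19% of all probe sets were called higher and 18.8% lower. AT1G75600 rose by 0.65, and MGH3 fell by 0.67, AT2G30620 by 0.32 and AT1G06760 by 0.18. Of these the fall of AT2G30620 held in all 23 alternative settings. The calls of AT1G06760, AT1G75600 and MGH3 were lost in 9 of 23, 8 of 22 and 4 of 22 settings, with a limma adjusted p of up to 0.157, 0.178 and 0.0915 in that order. Over these settings the change of AT1G75600 was 0.22 to 2.21 and that of MGH3 -1.69 to -0.25. By background, the NAA change of MGH3 was -1.29 with DEX and -0.06 for NAA alone, which was not called. With NAA, CHX raised 5 and lowered 1 of the 8, where 29.1% of all probe sets were called higher and 35.1% lower. NAA with CHX gave no call among the 8, where 1.38% of all probe sets were called higher and 3.09% lower. The difference of the NAA effect was called for AT1G06760 at 0.36 and AT2G30620 at 0.33. For that difference 11.8% of all probe sets were called for a higher and 12.5% for a lower value.

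AUR1 was set beside the other Aurora kinases and WYR, which encodes a plant counterpart of INCENP, the Aurora partner at the centromere. Of 5 listed genes, 4 were measured. After CHX without NAA, 3 fell and none rose, with a median change of -1.11 against -0.01 over all probe sets, and 34.4% of all probe sets were called lower. AUR2, the closest relative of AUR1, fell by 1.53 and WYR by 1.17, or by 0.76 with a pseudocount of 64. AUR3, the Aurora kinase of another class, changed by -0.37 (SE 0.17, limma adjusted p 0.069), which was not called. With NAA, all 4 fell after CHX, AUR2 by 1.36, AUR3 by 1.01 and WYR by 1.55, beside the 1.49 of AUR1. That is 3 of 3 without AUR1, where 35.1% of all probe sets were called lower.

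NAA without CHX raised 2 of the 4, AUR1 by 0.43 and AUR3 by 0.64 (SE 0.17, limma adjusted p 0.00634), which is 1 of 3 without AUR1, where 19% of all probe sets were called higher. AUR3 had signals of 202 and 163 in NAA+DEX roots and 215 and 162 in NAA roots, against 119 and 93.7 in DEX roots and 115 and 125 in mock roots. AUR2 changed by -0.12 (limma adjusted p 0.477) and WYR by 0.30 (limma adjusted p 0.22), neither of which was called. NAA with CHX gave no call, with changes of -0.09 to 0.05, where 1.38% of all probe sets were called higher and 3.09% lower. The difference of the NAA effect between roots with and without CHX was called for AUR1 only among the 4. It was -0.65 for AUR3 (SE 0.24, limma adjusted p 0.0623), and 11.8% of all probe sets were called for a higher and 12.5% for a lower value. DEX on average gave no call, with changes of -0.09 to 0.14, where 0.0659% of all probe sets were called higher and 0.0132% lower.

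Few genes of the wider cell cycle lists were measured by a named probe set, 3 of 39 for mitosis, 1 of 37 for entry into S phase and 3 of 33 for DNA replication. Of the 3 mitotic genes, 2 fell with CHX in the roots without NAA, where 34.4% of all probe sets were called lower. BUB3.1 and BUBR1, of the spindle checkpoint, fell by 0.72 and 1.22, and ATSMC2, a condensin subunit, changed by -0.17. With NAA all 3 fell, by 0.79, 1.04 and 0.43 in that order, where 35.1% of all probe sets were called lower. The last of these calls was lost without NAA replicate 2 (-0.40, limma adjusted p 0.0562) and without NAA+DEX replicate 2 (-0.35, limma adjusted p 0.0843). None of the 3 was called for NAA, with or without CHX. Without CHX, 19% of all probe sets were called higher and 18.8% lower for NAA. With CHX the shares were 1.38% and 3.09%.

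SIM was the 1 measured gene of the list for entry into S phase. It is an inhibitor of cyclin-dependent kinases known for its part in endoreduplication, so its values are no measure of entry into S phase. SIM fell by 1.14 after CHX without NAA, a fold of 0.453, and to a fold of 0.233 after CHX with NAA. Its NAA changes were 0.15 without CHX and -0.81 with CHX, and the second of these passed the test (SE 0.09, limma adjusted p 4.44e-05). The difference of the NAA effect was -0.96 (SE 0.12, limma adjusted p 1.98e-05). Of all probe sets, 34.4% were called lower for CHX without NAA and 35.1% for CHX with NAA. For NAA with CHX 3.09% were called lower, and for the difference 12.5%.

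All 3 measured replication genes rose with NAA in the roots without CHX, where 19% of all probe sets were called higher. PRL, the MCM7 subunit of the replicative helicase, rose by 0.56, ICU2, the catalytic subunit of DNA polymerase alpha, by 0.56, and PSF2, a GINS subunit, by 0.46. PRL had signals of 1019 and 971 in NAA+DEX roots and 1001 and 916 in NAA roots, against 686 and 686 in DEX roots and 616 and 646 in mock roots. With CHX their NAA changes were between -0.12 and -0.07, with no call, where 1.38% of all probe sets were called higher and 3.09% lower. The difference of the NAA effect was called for all 3 at -0.66, -0.63 and -0.58, beside 12.5% of all probe sets called for a lower value. CHX without NAA gave no call among the 3 genes, with changes of -0.10 to 0.12, where 29.5% of all probe sets were called higher and 34.4% lower. CHX with NAA lowered all 3, by 0.54, 0.53 and 0.68, beside 35.1% of all probe sets.

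**Figure D4:**
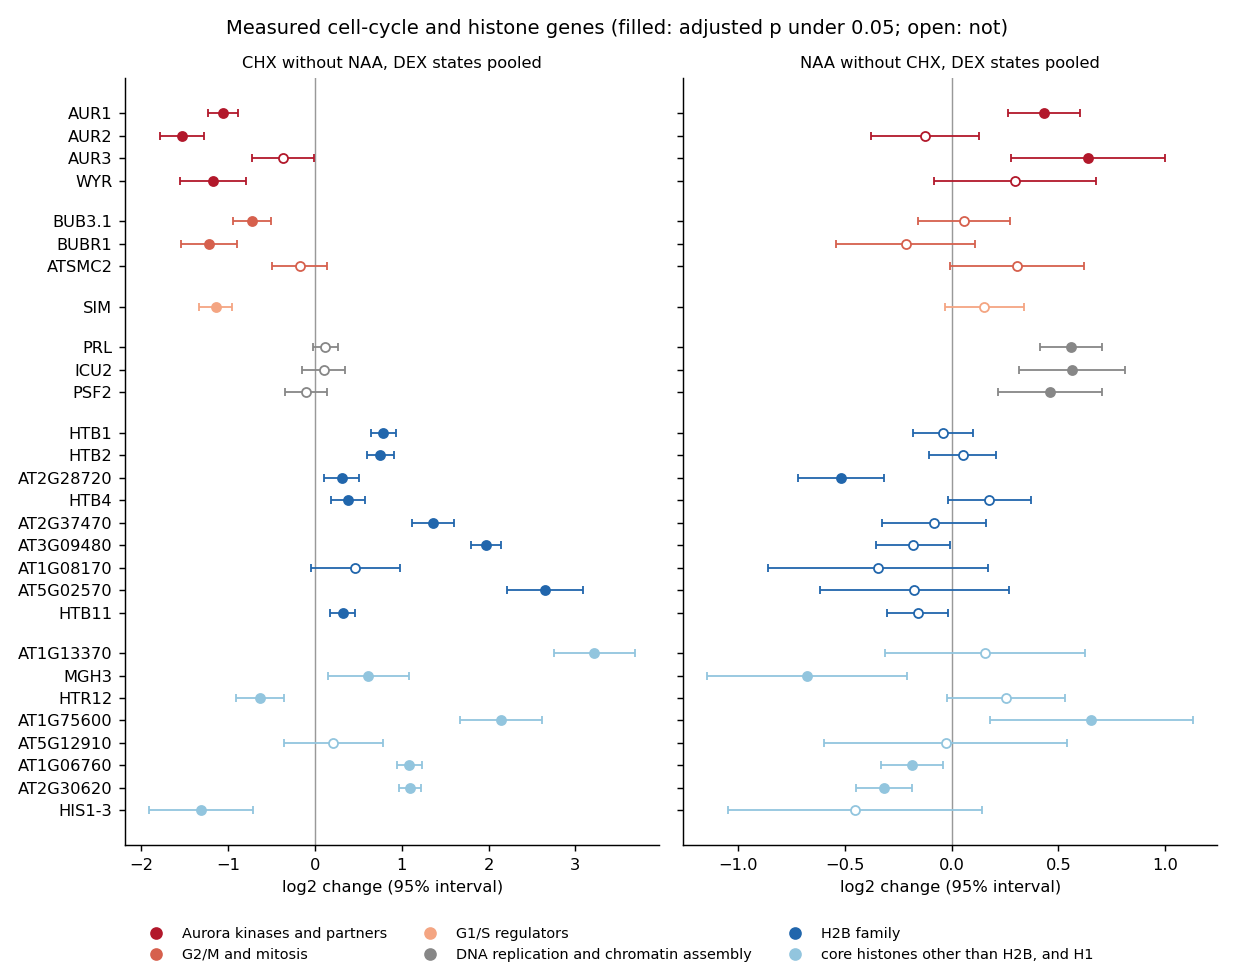
Log2 change and 95% interval of the 28 measured genes of 6 lists after CHX in roots without NAA (left) and after NAA in roots without CHX (right), both DEX states pooled. Filled points passed an adjusted p under 0.05. Under CHX, 8 of 9 H2B genes are above 0 and filled (median 0.76), where 29.5% of all probe sets were called higher and 34.4% lower. AUR1, AUR2, WYR, BUB3.1, BUBR1, SIM, HTR12 and HIS1-3 are filled below 0. Under NAA, AUR1, AUR3, the 3 replication genes and AT1G75600 are filled above 0, and AT2G28720, MGH3, AT2G30620 and AT1G06760 below it. There 19% of all probe sets were called higher and 18.8% lower.

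Genes whose 8 group means ran most like those of each gene were sought among single-gene probe sets that varied at least 0.5 times as much. For AUR1 they were AT4G28230, AT3G25470 and AT5G63680, with a Pearson r of 0.998, 0.997 and 0.997 over the 8 means and of 0.988, 0.985 and 0.990 over the 16 arrays. For HTB2 they were TPI, a triose-phosphate isomerase (r 0.997), AT3G08810 (r 0.993) and GSTF4, a glutathione transferase (r 0.993). Over the 16 arrays these had an r of 0.974, 0.770 and 0.964, so AT3G08810 followed HTB2 less closely array by array. For AT2G37470 they were AT3G56890, AT1G55700 and AT2G04840, with an r of 0.994, 0.993 and 0.993 over the means and of 0.925, 0.956 and 0.953 over the arrays. These values share the arrays and their scaling. Such likeness was common. An r over 0.95 was reached by 1232 of 8886 candidates for AUR1, 1186 of 11982 for HTB2 and 1404 of 9129 for AT2G37470.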

How the data were processed

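Each of the 16 RNA samples was labelled with biotin and measured on its own 1-colour array. The authors deposited a linear intensity per probe set, made with Affymetrix Expression Console 1.3 per the submitters' processing notes, and the algorithm and genome build are not given in the sources used here, so no coordinates are printed. The deposited intensity was scaled per array, as each array had a mean of 500 once the extreme 2% at either end were trimmed. No 2 arrays were identical.

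Of 22810 probe sets, 64 controls were left out. The array's probe-to-gene list gave 1 gene for 13513 of the rest, several for 503 and none for 8730, which are unnamed here. Symbols of 13436 were updated through the TAIR10.1 gene table.

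Log2(intensity + 16) values of all 16 arrays were fitted in limma 3.58.1 (R 4.3.3), with a mean for each group and a variance prior that depends on signal level. The residual degrees of freedom were 8 and the prior ones 7.94. Tests are 2-sided. Of 20 comparisons, 5 pool backgrounds, 3 are interactions and 12 set 2 arrays against 2. The comparisons within an agent share control arrays. The fit was tested on simulated data. Groups of 2 limit the precision and allow no test of a single array.

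Arrays of equal replicate number were not taken as pairs, since their deviations correlated by only -0.05 to 0.06 over 28 pairs of groups.

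The 3 genes and 8 lists (H2B family, other histones, Aurora kinases and partners, mitosis, entry into S phase, replication, root markers, green tissue markers) were chosen with earlier results of these data known. Named are the 3 genes, every measured gene of a list with up to 6, otherwise the 4 largest called changes under CHX without NAA and NAA without CHX, and the 3 closest patterns. Alternatives were quantile normalization, pseudocounts of 1 and 64, only the brightest 60% of probe sets (13648, all 3 genes kept), no variance trend, a replicate block, only the arrays compared, and leaving out each array.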

Additional observations from a re-analysis of the deposited data

Results flagged for a closer look

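The effect of NAA on AUR1 differed between roots with and without CHX by a test of the difference itself, at -0.43 on the log2 scale (limma adjusted p 0.00876). It was called in all 22 alternative settings run for it, with values of -0.49 to -0.37 and adjusted p of 0.0049 to 0.0296. The same test gave a difference for 9 other genes of the lists. Measured in these lists were 9 H2B genes, 8 other histone genes, 4 Aurora kinases and partners and 3 mitotic genes. The rest were 1 gene for entry into S phase, 3 for replication, 3 root markers and 2 green tissue markers. The difference was -0.96 for SIM, -0.66 for PRL, -0.63 for ICU2 and -0.58 for PSF2, so NAA gave a lower change with CHX in these. It was 0.51 for AT2G28720, 0.36 for AT1G06760, 0.33 for AT2G30620, 0.27 for HTB11 and 0.43 for the green tissue marker RCA, so NAA gave a higher change with CHX in those. The calls of HTB11 and RCA were lost in 18 and 15 of 22 alternative settings, and those of the other genes in none. Over all probe sets, 5527 of 22746 were called in this test, 11.8% for a higher and 12.5% for a lower value, so such a call was common.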

How the results depend on the processing

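The 21 calls made for AUR1, HTB2 and AT2G37470 (8 in pooled comparisons and interactions, 13 in single backgrounds) kept their direction and stayed called in all 482 alternative values computed for them, and none of their other 39 results became a call. Each group holds both replicate numbers, so the replicate block could not alter a change, only its SE and p-value. With those altered, the block changed no call of the 3 genes. Quantile normalization shifted the median of all probe sets by at most 0.10 in size.
Signs turned only in values that were not called, and the cause was not tested. AT2G37470 for DEX by CHX was 0.00048 with a pseudocount of 64. Leaving out each array gave AT2G37470 -0.13 to 0.12 for DEX by CHX, -0.15 to 0.10 for NAA by CHX, -0.21 to 0.042 for NAA without CHX, -0.22 to 0.0045 for NAA with CHX (pooled), -0.097 to 0.030 for DEX alone, -0.26 to 0.030 for DEX with CHX, -0.49 to 0.014 for NAA alone and -0.023 to 0.27 for NAA with DEX and CHX. It gave AUR1 -0.054 to 0.056 for NAA with CHX (pooled), -0.083 to 0.0082 for NAA with CHX, -0.071 to 0.15 for NAA with DEX and CHX and -0.13 to 0.090 for DEX with NAA and CHX. It gave HTB2 -0.043 to 0.035 for the DEX average and -0.029 to 0.28 for NAA with CHX.
Counts of called probe sets moved by over 1.5 times as follows. NAA with CHX (pooled) called 1017, against 572 with no variance trend and 618 to 928 leaving out 1 array. NAA with CHX called 293, against 114 with no variance trend, 16 with only the arrays compared and 107 to 295 leaving out 1 array. For NAA with DEX and CHX the 297 became 100, 24 and 95 to 306 in the same settings. DEX alone called 5, against 8, 17, 1, 8, 0 and 0 with quantile normalization, pseudocounts of 1 and 64, the filter, no trend and only the arrays compared. DEX with NAA called 8, against 18, 40, 2 and 13 in the first 4 of these, 4 with the block and 0 with only the arrays compared. DEX with CHX called 3, against 9 and 7 with pseudocounts of 1 and 64, 11 with no trend and 0 with only the arrays compared. DEX with NAA and CHX called 7, against 4 with quantile normalization, 12 with a pseudocount of 1, 4 with the block and 0 with only the arrays compared. DEX by NAA called 0, against 3 with a pseudocount of 1, and DEX by CHX called 1, against 5 with a pseudocount of 1, 5 with the filter and 0 with no trend. Leaving out 1 array gave 2 to 9, 0 to 19, 3 to 8 and 2 to 11 calls for DEX in the 4 backgrounds in that order, 0 to 6 for DEX by CHX and 10 to 22 against 18 for the DEX average.
Only the arrays compared could not be run for the DEX average and the interactions, which use all 16. Where an array was left out, its lone partner is assumed to vary like the other groups.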
